A study of Mus musculus with 31 samples.

Results

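Livers of Ames dwarf mice of 10 months were compared with livers of wild-type mice of the same age. The comparison takes the 5 arrays titled as dwarf and the 5 titled as wild type at this age, 10 of the 31 arrays of the series. The other arrays hold dwarf and wild-type livers of 4 months (10 arrays) and 22 months (11 arrays). The series title calls the dwarf mice mutant and long-lived. Which alleles the wild-type controls carried, their sex, the background strain and the time of day are not given in the labels. By the animal names in the labels each array holds 1 animal, so the spread within a group covers animals and handling together. Total RNA of snap-frozen whole liver was labelled with biotin and hybridised to Affymetrix arrays, on which a probe set measures 1 transcript by its brightness, called signal. A free-text field names a fly tissue, while the title, source and organism fields name mouse liver and were followed here.

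Ames dwarf mice lack the pituitary cells that make growth hormone, prolactin and thyroid-stimulating hormone. In the liver, growth hormone binds its receptor, which activates the kinase Jak2 and the transcription factor Stat5b. These drive Igf1, a growth factor of blood that comes largely from hepatocytes. The pulsed growth hormone pattern of males and the steadier pattern of females also set a large part of the sex difference in liver transcripts. Thyroid hormone reaches liver genes through nuclear receptors, after the deiodinase Dio1 has converted thyroxine to its active form.

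The arrays carry 45037 probe sets, from which 15421 genes entered the tests. Over the 10 arrays the median signal ran from 179 to 210.2, and 10% of the probe sets of an array lay below 20.1 to 24, a level taken here as near background. Pairs of these arrays correlated at 0.892 to 0.934 over log2 signal. The liver gene Alb, which encodes serum albumin, read 50561 to 66708 in dwarf and 43732 to 65872 in wild type, among the brightest on both sides. A pair of dwarf arrays stood apart on the X-linked transcript Xist, which silences an X chromosome in female cells: replicate 1 read 5582 and replicate 4 read 7336, against 118 at most on the other 8 arrays. The Y-linked gene Eif2s3y read 708 on dwarf replicate 1 and 44.3 on dwarf replicate 4, against 661 to 1164 on the other 8. For Kdm5d the same 2 arrays read 303 and 76.4, against 215 to 441.2 on the other 8. For Uty they read 275 and 60.2, against 336.7 to 441 on the other 8. Dwarf replicate 4 thus had high Xist with low Y-linked signal. Dwarf replicate 1 had high Xist together with Y-linked signal within the range of the other 8 for Eif2s3y and Kdm5d. For Uty it lay below that range, and above dwarf replicate 4. Calls and list counts that change without these 2 arrays are given both ways beside the result.

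Values were compared as log2 of signal plus 16. A log2 difference is the dwarf mean minus the wild-type mean on that scale, so 1 stands for a doubling, and the added 16 makes it understate changes of dim genes. Tests are limma's, over all genes and all 31 arrays, with Benjamini-Hochberg adjusted p and a threshold of 0.05. Of the 15421 genes, 955 (6.19%) passed: 514 (3.33%) were higher and 441 (2.86%) lower in dwarf. At least 2-fold higher were 155 of them and at least 2-fold lower 178, while the median difference of all genes was 0.03. For 547 genes (3.55%) all 5 dwarf arrays lay above all 5 wild-type arrays, and for 469 (3.04%) all lay below. Without the 2 high-Xist dwarf arrays 603 genes (3.91%) passed, 324 higher and 279 lower, and 304 and 244 of these were called in the same direction with all arrays. With each array centred on its median instead, the split was 333 higher and 375 lower, so the count of higher genes depends on the scaling. Counts within gene lists below stand against the shares of all genes, 3.33% higher and 2.86% lower. An unadjusted p under 0.05 was found for 2820 of the 15421 genes.

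The growth hormone axis was changed at its secreted products. Igf1 read 1283, 868, 3586, 1746 and 1583 on the 5 dwarf arrays and 13163, 13559, 13573, 14790.4 and 12149 on the 5 wild-type arrays. No dwarf array came near the wild-type range, and the difference was -3.04 ± 0.27 (SE, adjusted p = 1.44e-09). Its 3 other probe sets gave -2.84, -3.43 and -3.69. Igfals, the acid-labile subunit that holds Igf1 in the circulating complex, read 257, 282, 354, 375 and 234 on the 5 dwarf arrays and 3110.5, 3389.5, 2273, 3077 and 2565 on the 5 wild-type arrays. It fell by the same order as Igf1, with a difference of -3.20 ± 0.24 (SE, adjusted p = 3.38e-11), and the groups again did not overlap.

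Binding proteins of Igf1 did not move together. Igfbp1, which binds Igf1 and is held down by insulin in the fed liver, read 35159.8, 54073, 16231, 23127 and 6786 on the 5 dwarf arrays and 202, 513, 983, 397 and 606 on the 5 wild-type arrays. Every dwarf array lay above every wild-type array, and dwarf replicate 5 was the lowest of the 5. The difference was 5.46 ± 0.72 (SE, adjusted p = 2.62e-06). Igfbp2, another binding protein of serum, read 25738, 38569, 15657, 17788 and 5663 on the 5 dwarf arrays and 7866, 9978, 4068, 5445 and 3809 on the 5 wild-type arrays. It rose by 1.57 ± 0.32 (SE, adjusted p = 0.00169), but dwarf replicate 5 lay inside the wild-type range. Igf2bp3, an RNA-binding protein of the fetal liver, also rose, at 1.81 ± 0.38 (SE, adjusted p = 0.00206), with ranges of 1156 to 2839 in dwarf and 131 to 1183 in wild type that overlap. Igfbp3, the main partner of Igf1 in blood, differed by -0.23 ± 0.22 (SE, adjusted p = 0.652), and Igfbp4 by 0.03 ± 0.11 (SE, adjusted p = 0.924). The receptor Igf1r (0.28) and the fetal growth factor Igf2 (1.13, adjusted p = 0.198) did not pass, though Igf2 did with its probe sets averaged (1.04, adjusted p = 0.0482). Of the 15 genes of the IGF list tested, 3 were higher and 2 lower, with a median of -0.18.

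Upstream of these products, 1 of 15 tested genes of the growth hormone receptor pathway passed, a share near the 6.19% of all genes. At an unadjusted p under 0.05 were 6 of the 15, against 2820 of all 15421 genes. The receptor Ghr read 11949 to 13398 in dwarf and 13190.3 to 19146 in wild type, with a difference of -0.25 ± 0.12 (SE, adjusted p = 0.248), and it passed with its probe sets averaged (-0.45, adjusted p = 0.01). The kinase Jak2 differed by -0.59 (adjusted p = 0.17), Stat5a by -0.27 and Stat5b by 0.23. Cish, an inhibitor that Stat5 itself switches on, read 678, 794, 698, 767 and 608 on the 5 dwarf arrays and 2092, 1629, 1015, 2026 and 924 on the 5 wild-type arrays. All dwarf arrays lay below all wild-type arrays, yet the difference of -1.03 had an adjusted p of 0.0986, against 0.00887 with only the 10 arrays fitted. Socs2, another such inhibitor, differed by 0.26 (adjusted p = 0.585). Onecut1, a hepatocyte transcription factor also called HNF6, read 67.6, 61.6, 90.5, 86.8 and 164 on the 5 dwarf arrays and 1418, 1604, 1124, 1289 and 776 on the 5 wild-type arrays. It was the gene of this list that passed, at -3.54 ± 0.57 (SE, adjusted p = 8.14e-05), and its groups were far apart. Without the high-Xist dwarf arrays 1 gene was higher and 1 lower, and with only the 10 arrays fitted 3 passed. The list's median was -0.11.

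**Figure D1:**
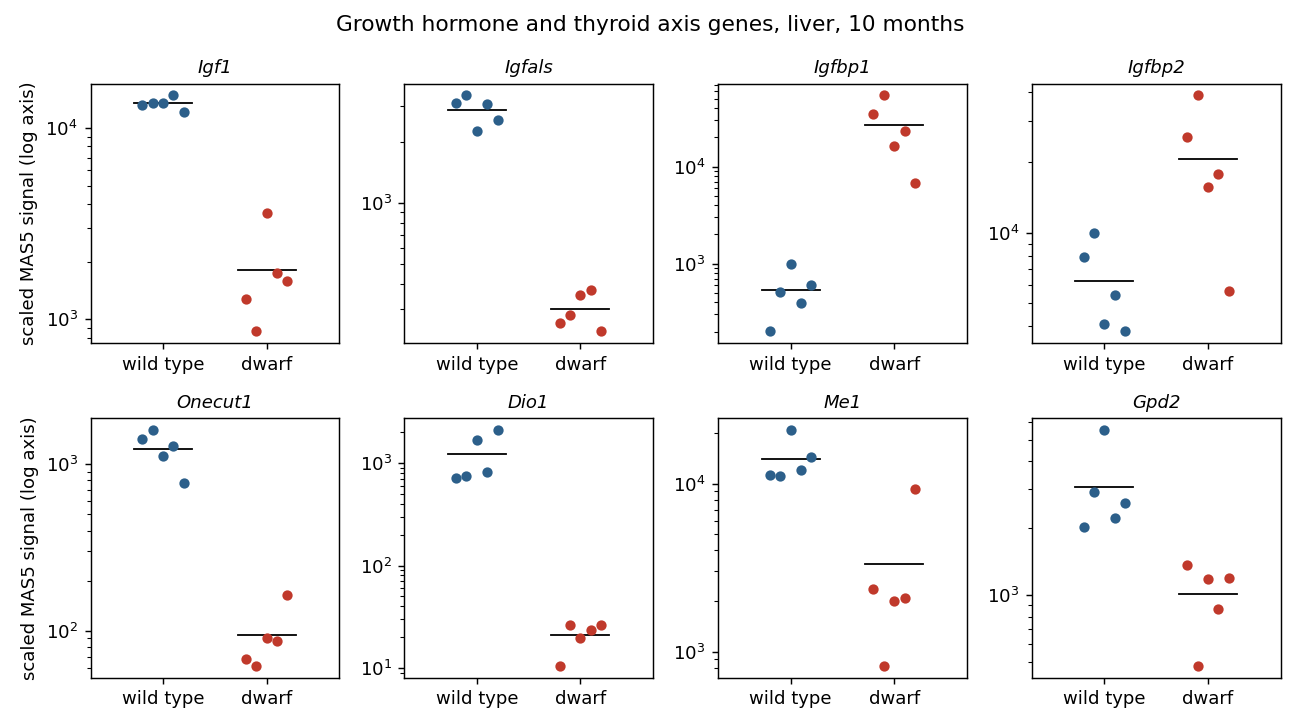
Scaled MAS5 signal on a log axis for 8 genes of the growth hormone and thyroid axes, with 1 point per liver at 10 months and a line at the mean of each group of 5. Igf1, Igfals, Onecut1, Dio1, Me1 and Gpd2 lay lower and Igfbp1 higher on all 5 dwarf arrays, while Igfbp2 of dwarf replicate 5, at 5663, lay among the wild-type values.

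The insulin pathway, which represses Igfbp1, showed small changes in both directions. Irs1, the first docking protein below the insulin receptor, read 2074, 2210.3, 2078, 2824 and 2218 on the 5 dwarf arrays and 1349.5, 1546, 1439, 994 and 1038 on the 5 wild-type arrays. It rose by 0.85 ± 0.17 (SE, adjusted p = 0.00175) without overlap. Trib3, an inhibitor of the kinase Akt, rose by 1.32 ± 0.29 (SE, adjusted p = 0.0038), and the coactivator Ppargc1a, which turns on genes of glucose production, by 0.97 ± 0.24 (SE, adjusted p = 0.0105). For Ppargc1a the adjusted p was 0.0915 without the high-Xist dwarf arrays. Pik3r1, the regulatory subunit of the insulin-responsive lipid kinase, fell, at -0.68 ± 0.16 (SE, adjusted p = 0.00674), as did the kinase Pdpk1, at -0.58 ± 0.16 (SE, adjusted p = 0.0263). The call of Pdpk1 was lost without any 1 of dwarf replicates 1 or 2 and wild type replicates 1 or 4 (adjusted p of 0.0541 to 0.0873). The insulin receptor Insr (0.35, adjusted p = 0.073) and the transcription factor Foxo1 (0.07) did not pass. In all, 3 of 18 genes were higher and 2 lower (2 and 2 without the high-Xist dwarf arrays), with a median of 0.03.

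Promoter sequences are shown for 5 genes that differed by more than 3 on the log2 scale and whose window holds a motif tied to these hormones. A window covers 250 bases before to 50 after an annotated start, from RefSeq on GRCm38.p6, 5′ to 3′ on the gene's strand, and matches on both strands are in capitals. The motif TTCNNNGAA is the core bound by Stat5, and CAAAACAA is the core of the insulin response element that FOXO factors bind. Both are shown because growth hormone acts through the first and insulin through the second. Igfals has 3 annotated windows, and the one with a match nearest to its start is at chr17:24877981-24878280, plus strand. Keg1, an acyltransferase-like gene, is at chr19:12695540-12695839, plus strand, and C8a, a complement subunit, is at chr4:104876349-104876648, minus strand. Hamp2, a hepcidin gene, is at chr7:30924132-30924431, minus strand, and Igfbp1 is at chr11:7197537-7197836, plus strand.
Igfals: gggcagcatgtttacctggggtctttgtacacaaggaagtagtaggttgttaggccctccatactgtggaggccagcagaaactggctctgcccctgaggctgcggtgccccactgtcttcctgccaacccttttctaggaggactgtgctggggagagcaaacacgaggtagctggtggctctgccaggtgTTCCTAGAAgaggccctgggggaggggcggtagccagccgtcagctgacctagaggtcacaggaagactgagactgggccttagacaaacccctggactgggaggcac
Keg1: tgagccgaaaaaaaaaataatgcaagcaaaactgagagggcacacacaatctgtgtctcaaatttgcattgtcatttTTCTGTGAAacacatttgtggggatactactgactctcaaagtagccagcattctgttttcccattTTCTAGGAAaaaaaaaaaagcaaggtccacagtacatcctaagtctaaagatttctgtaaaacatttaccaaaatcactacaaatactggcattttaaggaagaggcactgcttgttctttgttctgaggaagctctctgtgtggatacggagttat
C8a: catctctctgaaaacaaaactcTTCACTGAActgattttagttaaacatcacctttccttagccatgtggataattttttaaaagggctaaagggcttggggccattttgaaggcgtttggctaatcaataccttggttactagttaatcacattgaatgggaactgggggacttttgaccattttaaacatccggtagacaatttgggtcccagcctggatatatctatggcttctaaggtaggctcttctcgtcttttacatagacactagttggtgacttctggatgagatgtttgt
Hamp2: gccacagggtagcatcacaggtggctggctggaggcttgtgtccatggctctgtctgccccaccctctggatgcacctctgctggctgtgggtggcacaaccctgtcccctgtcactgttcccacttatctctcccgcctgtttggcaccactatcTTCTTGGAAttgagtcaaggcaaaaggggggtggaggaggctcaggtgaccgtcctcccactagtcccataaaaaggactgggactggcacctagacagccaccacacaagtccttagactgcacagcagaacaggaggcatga
Igfbp1: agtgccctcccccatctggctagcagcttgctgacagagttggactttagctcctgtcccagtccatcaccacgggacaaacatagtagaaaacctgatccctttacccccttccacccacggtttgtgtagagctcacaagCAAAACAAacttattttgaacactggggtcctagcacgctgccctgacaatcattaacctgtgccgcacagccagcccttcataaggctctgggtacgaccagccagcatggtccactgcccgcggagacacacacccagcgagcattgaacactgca

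These matches are a description of letters and not of binding. The TTCNNNGAA match began at -58 from the start in Igfals, at -173 and -107 in Keg1, at -228 in C8a and at -94 in Hamp2. In Igfbp1 the CAAAACAA match began at -108. Igfals, Keg1 and C8a were lower in dwarf and Hamp2 was higher, so windows with the same motif were found on genes of both directions. Of all 32851 windows, 8.30% held TTCNNNGAA and 2.51% CAAAACAA. Taken by gene, with any window counted, TTCNNNGAA was held by 40 of 359 lower genes (11.1%), 23 of 407 higher genes (5.65%) and 1052 of 12339 genes tested (8.53%). For CAAAACAA the counts were 6 of 359 lower, 10 of 407 higher and 279 of 12339 tested. Other motifs were searched in the same way: AGGTCA, a nuclear receptor half-site, was in 70 of 359 lower, 71 of 407 higher and 2022 of 12339 tested. TGTTTAC, a forkhead core, was in 16 of 359, 15 of 407 and 414 of 12339, and the TATA box core TATAAA in 34 of 359, 46 of 407 and 1322 of 12339. Of genes on the sex-biased lists described further on, AGGTCA was in 11 of 19 female-biased and 6 of 22 male-biased, and TTCNNNGAA in 3 of 19 and 4 of 22. Genes with several windows have more chances to hold a motif, and none of these shares was tested.

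Genes of thyroid hormone handling were split. Dio1 read 10.5, 26.1, 19.5, 23.6 and 26.2 on the 5 dwarf arrays and 718, 754, 1669.7, 826 and 2091 on the 5 wild-type arrays. The dwarf values lie at the level taken as near background, and the difference was -4.92 ± 0.56 (SE, adjusted p = 1.55e-07). Slco1a1, a transporter of organic anions and thyroid hormone conjugates, read 74.3, 208, 66.6, 280.0 and 73.5 on the 5 dwarf arrays and 9394, 9079, 5739, 5491 and 7723 on the 5 wild-type arrays, a difference of -5.76 ± 0.47 (SE, adjusted p = 1.66e-10). Its relative Slco1a4, which also carries thyroid hormone, went the other way, with 2671 to 8661 in dwarf and 1372 to 2397 in wild type and a difference of 1.60 ± 0.25 (SE, adjusted p = 4.48e-05). The thyroxine-binding globulin Serpina7 (1.74), the cytosolic thyroid hormone binder Crym (0.99) and the transporter Slc16a10 (0.75) were higher. For Serpina7, dwarf replicate 2 read 23367, far above the rest, and the call was lost without dwarf replicate 2 (adjusted p = 0.0605). That of Slc16a10 was lost without dwarf replicate 2 (adjusted p = 0.0559). The other carrier of thyroxine in serum, Ttr, differed by 0.11 ± 0.12 (SE, adjusted p = 0.68), and the receptors Thra (0.38) and Thrb (-0.10) did not pass. Slco1a1 is also on the male-biased list described further on.

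Among genes known to respond to thyroid hormone, Dio1, given above, malic enzyme and mitochondrial glycerol phosphate dehydrogenase fell. Me1, malic enzyme, read 2356, 823, 1998, 2084 and 9276 on the 5 dwarf arrays and 11303, 11095, 20787, 12094 and 14308 on the 5 wild-type arrays. Dwarf replicate 5 lay just below the wild-type range and the other 4 far below it, with a difference of -2.50 ± 0.37 (SE, adjusted p = 1.98e-05). Gpd2, the glycerol phosphate dehydrogenase, read 1369, 479.8, 1177, 862 and 1187 on the 5 dwarf arrays and 2017, 2909, 5527, 2214 and 2600.3 on the 5 wild-type arrays, a difference of -1.56 ± 0.28 (SE, adjusted p = 0.000278). Its 3 other probe sets gave -0.66, -0.60 and -0.04, and with all 4 averaged the difference was -0.71 (adjusted p = 0.0673). Thrsp, the lipogenic gene known as Spot 14, read 17206, 4813, 33433, 7090.2 and 27632 on the 5 dwarf arrays and 19329, 40124, 30473, 43037 and 32456 on the 5 wild-type arrays, so that dwarf replicates 3 and 5 lay within the wild-type range. Its difference of -1.18 did not pass (adjusted p = 0.167), whereas it passed with its probe sets averaged (-1.44, adjusted p = 0.0267). Klf9 (-0.29), a transcription factor of the same response, did not pass either. Of 18 such genes 3 were higher and 4 lower (3 and 3 without the high-Xist dwarf arrays), with a median of -0.08. The 3 higher genes were Pck1, Tat and Slc16a10, so the list was split. Of 15 handling genes 4 were higher and 2 lower, with a median of 0.20.

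Genes known to be higher in male liver were mostly lower in dwarf, and genes known to be higher in female liver were often higher. Both lists were drawn up with earlier results of these arrays known, so their direction is a description. Of 31 male-biased genes tested, 26 were lower and 0 higher in dwarf, with a median of -2.15. Of 27 female-biased genes 15 were higher and 1 lower, with a median of 1.54. Without the high-Xist dwarf arrays the counts were 24 lower and 0 higher, and 13 higher and 1 lower. The median distance of the male-biased genes from the wild-type mean was -2.14, -1.95, -2.24, -2.19 and -2.05 on dwarf replicates 1 to 5, and 0.12, 0.14, -0.01, -0.08 and -0.06 on the wild-type arrays. For the female-biased genes it was 1.73, 1.57, 1.83, 1.41 and 1.33 on the dwarf arrays and -0.0034, -0.38, 0.01, 0.49 and 0.11 on the wild-type arrays. Both lists thus stood apart from wild type on each dwarf array, including the 3 with low Xist.

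Several male-biased genes had large falls. Hsd3b5, a steroid reductase of male liver, read 10.3, 7.6, 26.1, 15.6 and 7.9 on the 5 dwarf arrays and 11609, 11705, 2538, 6707 and 4826 on the 5 wild-type arrays. Its dwarf arrays were near background, so the difference of -7.81 ± 1.01 (SE, adjusted p = 2.11e-06) has no order against that of other genes as dim. Mup10, a major urinary protein that carries pheromones, read 53.1, 16.4, 28.7, 21.3 and 70.7 on the 5 dwarf arrays and 12453, 11676, 9960.2, 9379 and 10283 on the 5 wild-type arrays, a difference of -7.73 ± 0.40 (SE, adjusted p = 2.51e-15). Close relatives can share its probes, and the probe sets named for Mup5 (-3.57) and Mup3 (-3.52) also fell. Serpina4-ps1, a serpin pseudogene, read 60.7, 70.5, 46.9, 234 and 51.5 on the 5 dwarf arrays and 6082, 7592, 4075, 5959 and 5219 on the 5 wild-type arrays, a difference of -5.93 ± 0.60 (SE, adjusted p = 1.79e-08). Dwarf replicate 4, with low Y-linked signal, had the highest of the 5 dwarf values. Elovl3, an elongase of very long fatty acids, read 293, 252, 211, 192 and 662 on the 5 dwarf arrays and 13792, 2417, 18967, 4972 and 8129 on the 5 wild-type arrays. Wild-type values spread widely, and the lowest of them still exceeded the highest dwarf value, with a difference of -4.64 ± 0.61 (SE, adjusted p = 2.6e-06).

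Further falls on this list were in enzymes of several kinds. Keg1, shown above, read 670.5, 798, 739, 669.9 and 907 on the 5 dwarf arrays and 11108, 12443, 8759, 11049.8 and 7464 on the 5 wild-type arrays, a difference of -3.70 ± 0.31 (SE, adjusted p = 4.82e-10). Serpina12, a serpin also made by fat, read 139.9, 23.9, 95.1, 59.5 and 217 on the 5 dwarf arrays and 1390.1, 2854, 2009, 1037 and 1644 on the 5 wild-type arrays, a difference of -4.03 ± 0.53 (SE, adjusted p = 2.91e-06). Nudt7, a coenzyme A hydrolase of peroxisomes, read 2633 to 5469 in dwarf and 28756 to 35554 in wild type, and its difference was -2.90 ± 0.23 (SE, adjusted p = 1.32e-10). Susd4, a regulator of complement (-2.42), the growth factor receptor Egfr (-0.96), the steroid dehydrogenase Hsd17b2 (-1.28) and the glutathione transferase Gstp1 (-0.85) fell as well. The 5 tested members that did not pass were Cyp2d9 (-1.55, adjusted p = 0.057), Nat8f5 (-0.86), Bcl6 (0.39), Cspg5 (0.03) and Ihh (0.40). The groups of Cyp2d9 did not overlap, and it passed with only the 10 arrays fitted (adjusted p = 4.07e-06), without all high-Xist arrays (1.3e-07), with array weights (0.00913), with median centring (0.0452) and with the stricter filter (0.049). Outside the list, Csrp3, a LIM protein of muscle, read 23.5, 22.2, 22.3, 22.4 and 45.9 on the 5 dwarf arrays and 562, 439, 486, 443 and 581 on the 5 wild-type arrays, a difference of -3.60 ± 0.41 (SE, adjusted p = 2.2e-07).

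**Figure D2:**
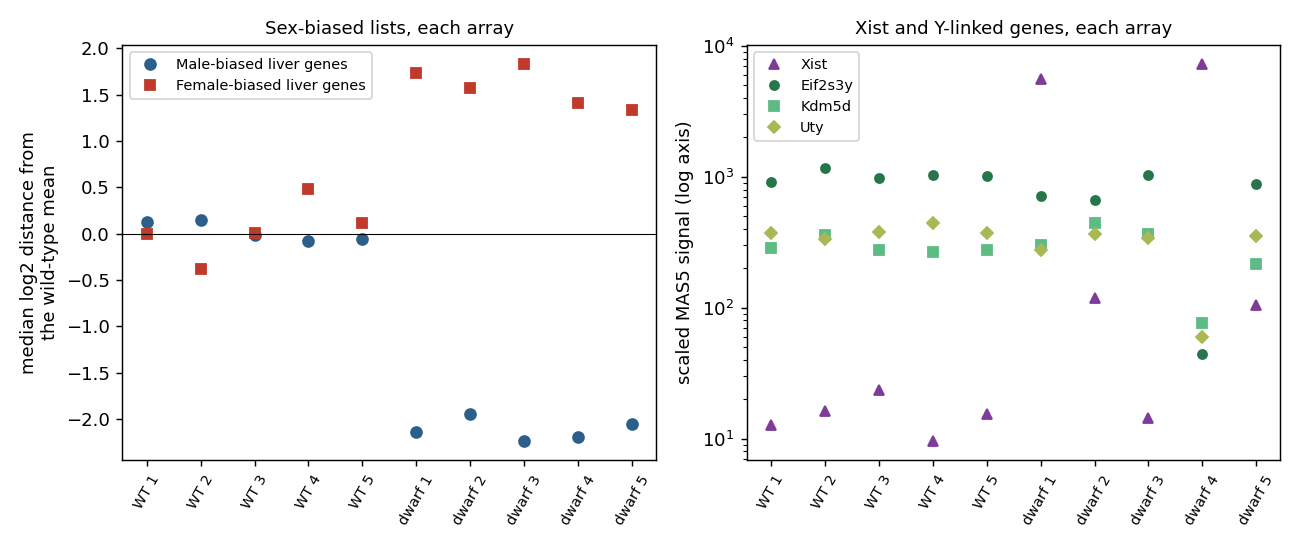
Left, the median distance of the male-biased (31 genes) and female-biased (27 genes) lists from the wild-type mean, in log2, for each of the 10 arrays. Right, scaled signal of Xist and 3 Y-linked genes on a log axis. The male-biased list lay at -2.14, -1.95, -2.24, -2.19 and -2.05 on dwarf replicates 1 to 5, while Xist was high on replicates 1 and 4 and Y-linked signal low on replicate 4.

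Several female-biased genes had large rises. Sult2a2, a sulfotransferase of steroids and bile acids, read 29519, 25143, 30345, 29315 and 26554 on the 5 dwarf arrays and 150.0, 33.8, 12.9, 20.6 and 87.9 on the 5 wild-type arrays. No other tested gene rose as far as this one, at 8.83 ± 1.02 (SE, adjusted p = 2.38e-07). Cyp2b13, a P450 enzyme, read 21599.6, 16576, 19202, 17428 and 16386 on the 5 dwarf arrays and 304, 152, 363, 433 and 354 on the 5 wild-type arrays, a difference of 5.82 ± 0.67 (SE, adjusted p = 2.38e-07). The neighbouring family member Cyp2b9 read 15114, 15168, 12837, 12131 and 14677 on the 5 dwarf arrays and 1419.8, 202, 1429, 2419.9 and 1113 on the 5 wild-type arrays, a difference of 3.74 ± 0.61 (SE, adjusted p = 8.9e-05). Sequence shared among Cyp2b genes can mix their signals. Cyp4a14, an omega-hydroxylase of fatty acids, read 17380.4, 23211, 8868, 16896 and 20054 on the 5 dwarf arrays and 124, 130.5, 274, 135 and 343 on the 5 wild-type arrays, a difference of 6.36 ± 0.56 (SE, adjusted p = 1.18e-09).

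Other rises of the list were in sulfation, oxidation and uptake. Hao2, a peroxisomal oxidase of hydroxy acids, read 7183, 7033, 5539, 6521 and 6901 on the 5 dwarf arrays and 234, 78.5, 137, 601 and 90 on the 5 wild-type arrays, a difference of 5.14 ± 0.63 (SE, adjusted p = 8.01e-07). Sult1e1, the sulfotransferase that inactivates estrogen, read 8141, 11231, 9608, 8736 and 10478 on the 5 dwarf arrays and 930.5, 978, 231, 178 and 40.2 on the 5 wild-type arrays. Wild-type replicates 1 and 2 were brighter than the other 3, and the difference was 4.99 ± 0.53 (SE, adjusted p = 5.66e-08). Hamp2, a paralog of the iron hormone hepcidin, read 58080.3, 55581, 63191, 54182 and 61651 on the 5 dwarf arrays and 8370.3, 4867, 4682, 18275 and 3916 on the 5 wild-type arrays, a difference of 3.12 ± 0.37 (SE, adjusted p = 3.13e-07), whereas Hamp, hepcidin itself, differed by -0.57 ± 0.23 (SE, adjusted p = 0.14). Vldlr, a receptor for triglyceride-rich lipoproteins, read 1790.0 to 2844 in dwarf and 150.5 to 347 in wild type, a difference of 2.94 ± 0.28 (SE, adjusted p = 5.98e-09). Fmo2, a flavin monooxygenase (1.90), Abcd2, a peroxisomal transporter (1.61), Atp6v0d2, a proton pump subunit (2.30), Cyp2c39 (1.54) and Nipal1 (1.24) rose as well. Acot3, a peroxisomal thioesterase (2.03), and the organic anion transporter gene Slc22a27 (2.49) passed with all arrays and had an adjusted p of 0.0567 and 0.138 without the high-Xist dwarf arrays. The call of Acot3 was also lost without any 1 of dwarf replicates 1, 2, 3 or 5 and wild type replicates 1, 2 or 3 (adjusted p of 0.0589 to 0.0942), and that of Slc22a27 without any 1 of dwarf replicates 1 or 3 and wild type replicates 1 or 2 (adjusted p of 0.0541 to 0.101). Lifr, the receptor of leukemia inhibitory factor, was the member that fell, at -1.30 ± 0.28 (SE, adjusted p = 0.00266). Those that did not pass included Cyp17a1 (1.19), Prom1 (0.80), Cux2 (-0.38) and Sult3a1 (1.23).

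**Figure D3:**
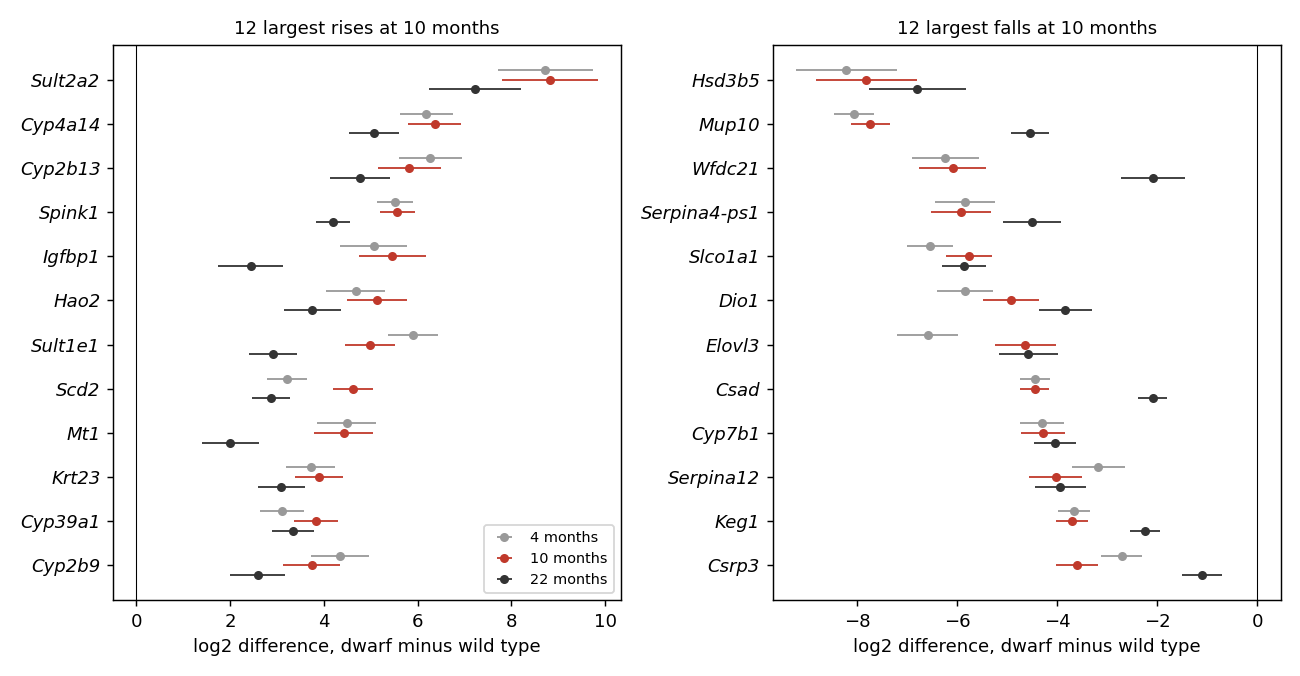
Log2 difference of dwarf minus wild type at 4, 10 and 22 months, with standard errors from limma, for the 12 largest rises and the 12 largest falls at 10 months whose groups of 5 did not overlap. At 10 months the rises ran from 3.74 for Cyp2b9 to 8.83 for Sult2a2, and the falls from -3.60 for Csrp3 to -7.81 for Hsd3b5.

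Other large rises were not on the sex-biased lists. Spink1, a secreted trypsin inhibitor, read 2579.8, 3622, 1523, 940.4 and 464 on the 5 dwarf arrays and 8.4, 13.8, 19.2, 16.6 and 17.4 on the 5 wild-type arrays. All wild-type values were near background, dwarf replicate 5 was the lowest of the dwarf values, and the difference was 5.57 ± 0.38 (SE, adjusted p = 2.05e-12). Scd2, a fatty acid desaturase, read 4872, 2468, 9432, 7171 and 11025 on the 5 dwarf arrays and 186, 424, 274, 158 and 209 on the 5 wild-type arrays, a difference of 4.62 ± 0.43 (SE, adjusted p = 3.07e-09). Its 2 other probe sets gave 3.45 and 1.69. Krt23, an intermediate filament keratin, read 1778, 2994, 957, 785 and 1191 on the 5 dwarf arrays and 31.2, 111, 29.8, 217 and 91.4 on the 5 wild-type arrays, a difference of 3.90 ± 0.52 (SE, adjusted p = 3.37e-06). All 24 of the named largest changes kept their side of the threshold without the high-Xist dwarf arrays and without any single array.

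Enzymes that act on foreign compounds were higher more often than lower. Of 29 P450 and flavin monooxygenase genes and their receptors, 11 were higher and 2 lower (9 and 1 without the high-Xist dwarf arrays), with a median of 0.37. Over all genes 3.33% were higher and 2.86% lower. Cyp2b9, Cyp2b13, Cyp2c39 and Fmo2, among the higher, are also on the female-biased list. Cyp2b10, the enzyme used as readout of the receptor Nr1i3, read 3761, 5278, 3258, 4085 and 5396 on the 5 dwarf arrays and 1525, 373, 1078, 1168 and 689 on the 5 wild-type arrays, a difference of 2.27 ± 0.50 (SE, adjusted p = 0.00338). Cyp2c37 read 1771 to 2470.4 in dwarf and 352 to 527 in wild type, a difference of 2.18 ± 0.23 (SE, adjusted p = 4.69e-08), and Cyp2c38 rose by 1.55. Cyp2c genes are close relatives whose signals may not separate. Nr1i3, the receptor also called CAR, rose by 0.66 ± 0.19 (SE, adjusted p = 0.0338), with an adjusted p of 0.0572 without the high-Xist dwarf arrays. Its call was lost without any 1 of dwarf replicates 2, 3, 4 or 5 and wild type replicates 2 or 3 (adjusted p of 0.0504 to 0.143). The receptor Nr1i2 (0.34) and the major enzymes Cyp3a11 (0.19), Cyp1a2 (0.35) and Cyp2e1 (0.12) did not pass. Cyp2f2 fell, at -0.58 ± 0.13 (SE, adjusted p = 0.0038).

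Conjugating enzymes changed in both directions. The sulfotransferases Sult2a2, Sult1e1 and Sult1a1 rose, the last at 1.63 ± 0.23 (SE, adjusted p = 8.66e-06) with 26918 to 49747 in dwarf and 6616 to 18079 in wild type. Glucuronosyltransferases of the Ugt2 family fell: Ugt2b38 (-2.15), Ugt2b37 (-1.91), Ugt2b1 (-0.98), Ugt2b5 (-0.73), Ugt2a3 (-0.71) and Ugt2b35 (-0.63). Probe sets of these families can cross-read between relatives. Sult5a1 fell by 1.62 on the log2 scale. In all, 3 of 19 genes of the list were higher and 8 lower (3 and 7 without the high-Xist dwarf arrays), with a median of -0.24. Sult2a2 and Sult1e1 are also on the female-biased list, and Ugt2b38 and Ugt2b1 on the male-biased list.

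Among antioxidant genes, the metallothioneins rose far more than the rest. Mt1, which binds zinc and copper, read 25191, 31828, 28749, 13936 and 23504 on the 5 dwarf arrays and 922, 2862, 687, 1610.2 and 529.7 on the 5 wild-type arrays, a difference of 4.42 ± 0.63 (SE, adjusted p = 1.1e-05). A second, dimmer probe set of Mt1 gave 1.54 (adjusted p = 0.103 with each probe set tested on its own). Mt2 read 9164, 15984, 8094, 4644 and 12284 on the 5 dwarf arrays and 784, 848, 646, 889 and 793 on the 5 wild-type arrays, a difference of 3.53 ± 0.50 (SE, adjusted p = 1.1e-05). The superoxide dismutases Sod1 (0.27) and Sod2 (-0.08), catalase Cat (-0.06) and the glutathione peroxidase Gpx1 (-0.14) did not pass. Txn2 (0.61), mitochondrial thioredoxin, and the selenium-binding protein gene Selenbp1 (0.71) rose, making 4 of 15 higher and 0 lower. Of 33 glutathione and NRF2 target genes 9 were higher and 2 lower (8 and 2 without the high-Xist dwarf arrays), with a median of 0.23. Gsta2 (1.29), Gstt3 (1.34) and Gstk1 (0.70), all glutathione transferases, and the plasma peroxidase Gpx3 (1.34) were among the higher. Gclm, the modifier subunit of glutathione synthesis, fell, at -0.86 ± 0.18 (SE, adjusted p = 0.00224), and the catalytic subunit Gclc differed by -0.20 ± 0.21 (SE, adjusted p = 0.686). The NRF2 gene itself, Nfe2l2, rose by 0.47 ± 0.12 (SE, adjusted p = 0.0124).

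Bile acid synthesis changed on its alternative branches. Cyp7b1, which hydroxylates oxysterols, read 959, 649, 427, 807 and 424 on the 5 dwarf arrays and 14820.3, 22261, 9005, 9312 and 10424 on the 5 wild-type arrays, a difference of -4.28 ± 0.43 (SE, adjusted p = 1.91e-08). Cyp39a1, which acts on another oxysterol, read 1717, 2180.4, 1004, 1344 and 962 on the 5 dwarf arrays and 99.8, 69.7, 56.8, 60.6 and 141 on the 5 wild-type arrays, a difference of 3.84 ± 0.47 (SE, adjusted p = 6.39e-07). These 2 enzymes moved in opposite directions with no overlap of groups. Cyp7b1 is also on the male-biased list. Cyp7a1, the rate-limiting enzyme of the main route, read 7568, 4518, 5871, 6854 and 11875 on the 5 dwarf arrays and 10298, 10138, 2487, 11140.0 and 5845 on the 5 wild-type arrays. Its spread was wide on both sides and the difference was -0.01 ± 0.41 (SE, adjusted p = 0.995). The sterol 27-hydroxylase Cyp27a1 (-0.59) and the bile acid receptor Nr1h4 (-0.57) fell, the latter with an adjusted p of 0.0892 without the high-Xist dwarf arrays, and the reductase Akr1d1 rose (0.93). Cyp8b1 (-0.18) and the transporters Slc10a1 (-0.05) and Abcb11 (0.45) did not pass, so 2 of 20 were higher and 3 lower (2 and 2 without the high-Xist dwarf arrays). By limma 0 of the 18 genes of cholesterol synthesis and uptake passed, and their differences ran from -0.55 for Fdps to 0.53 for Msmo1. An unadjusted p under 0.05 was found for 5 of them, against 2820 of all 15421 genes. Summed over these 18 genes, signal was 78253, 81982, 147078, 82674.5 and 78031 on the 5 dwarf arrays. In wild type the sums ran from 89610 to 110867, so dwarf replicate 3 lay above them and the other dwarf arrays below them.

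In fat metabolism some oxidation genes were higher, and few of the lipogenic genes fell. Of 38 genes of fatty acid oxidation and PPARA targets, 10 were higher and 1 lower, with a median of 0.09. Without the high-Xist dwarf arrays this was 4 and 0, and with median centring 4 and 1. Cyp4a14 and Acot3, among the 10 higher, are also on the female-biased list. Ehhadh, the peroxisomal bifunctional enzyme, rose by 0.92 ± 0.20 (SE, adjusted p = 0.0038) with 9138 to 17522 in dwarf and 5698 to 7848 in wild type. The dehydrogenases Acadl (0.55) and Acadm (0.53) rose by less, and the call of Acadm was lost without any 1 of dwarf replicates 2 or 5 and wild type replicates 2 or 3 (adjusted p of 0.0561 to 0.101). The count of higher genes was 5 without dwarf replicate 2, 4 without wild type replicate 2 and 6 without dwarf replicate 1, dwarf replicate 5 or wild type replicate 1. Ppara, the receptor that names the list, differed by -0.22 ± 0.22 (SE, adjusted p = 0.665), and Cpt1a, the gate of mitochondrial import, by 0.03 ± 0.15 (SE, adjusted p = 0.955). Fabp1, the liver fatty acid binding protein, fell by 0.54 on the log2 scale, with an adjusted p of 0.0924 without the high-Xist dwarf arrays.

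Lpl, lipoprotein lipase, which adult hepatocytes hardly make, read 5337, 9396, 3455, 9304 and 1223 on the 5 dwarf arrays and 717, 519, 954, 1382 and 422 on the 5 wild-type arrays. Its dwarf replicate 5 lay within the wild-type range and the other 4 above it, with a difference of 2.62 ± 0.39 (SE, adjusted p = 2.82e-05). Apoa4, an apolipoprotein, read 2168, 2861, 4660.2, 2664 and 9688 on the 5 dwarf arrays and 10347, 10646, 18984, 13259.6 and 14828 on the 5 wild-type arrays, a difference of -1.82 ± 0.29 (SE, adjusted p = 7.65e-05), again with dwarf replicate 5 nearest to wild type. Scarb1, the receptor of high-density lipoprotein, rose by 0.79 ± 0.14 (SE, adjusted p = 0.000193). Of 25 genes of lipoproteins and lipases 4 were higher and 1 lower, with a median of 0.08. The lipogenic genes Fasn (-0.74), Acaca (-0.58), Acly (-0.37), Scd1 (-0.36) and Srebf1 (-0.63) did not pass. With probe sets averaged Acly passed (-0.76, adjusted p = 0.00695), and Srebf1 passed without dwarf replicate 5 (adjusted p = 0.0381). Of 24 genes of that list 1 was higher, Scd2, and 3 were lower, Elovl3, Me1 and Acacb (1 and 2 without the high-Xist dwarf arrays), against 3.33% higher and 2.86% lower over all genes.

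Some genes of glucose production and nitrogen handling were higher, by less than the genes above. Pck1, which commits carbon to glucose, read 23568, 30213, 30632, 23887 and 18561 on the 5 dwarf arrays and 9125, 9870.2, 12845, 16131 and 16941 on the 5 wild-type arrays, a difference of 0.99 ± 0.20 (SE, adjusted p = 0.00161). The transaminase genes Got1 (1.06), Gpt (0.61) and Tat (0.71) rose with no overlap of groups, whereas G6pc, the last step of glucose release, differed by 0.32 ± 0.38 (SE, adjusted p = 0.742). Of 19 genes 5 were higher and 1 lower (4 and 0 without the high-Xist dwarf arrays), with a median of 0.20. In glycolysis 1 of 19 was higher, and in the urea cycle 3 of 13: Oat (0.83), Cps1 (0.39) and Slc25a15 (0.37). The call of Cps1 was lost without any 1 of dwarf replicates 2 or 3 and wild type replicates 3 or 5 (adjusted p of 0.0568 to 0.0724), and that of Slc25a15 without any 1 of dwarf replicates 1 or 2 and wild type replicate 5 (adjusted p of 0.0668 to 0.0764). Without the high-Xist dwarf arrays the adjusted p of Slc25a15 was 0.0657, and 2 of the 13 passed. Of 24 genes of amino acid breakdown 4 were higher and 0 lower (3 and 0 without the high-Xist dwarf arrays), with a median of 0.22.

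Methionine, cysteine and taurine metabolism had 10 of 23 genes higher and 1 lower, with a median of 0.36. Cth, which makes cysteine from cystathionine, read 32316, 47351, 36256, 31289 and 27927 on the 5 dwarf arrays and 16428, 14383, 8939, 14673 and 10640.2 on the 5 wild-type arrays, a difference of 1.44 ± 0.16 (SE, adjusted p = 1.51e-07). Csad, which decarboxylates cysteine sulfinate on the way to taurine, was the gene that fell, with 201, 277, 347, 296 and 373 on the 5 dwarf arrays and 3868, 4079, 9942, 6139 and 14466 on the 5 wild-type arrays. Its groups lay far apart, and the difference was -4.45 ± 0.30 (SE, adjusted p = 1.95e-12). Nnmt, a methyltransferase that consumes the methyl donor, read 3403 to 11001 in dwarf and 771 to 4184 in wild type and rose by 1.81 ± 0.42 (SE, adjusted p = 0.00584). Smaller rises were those of Mthfd1 (0.69), Aldh1l1 (0.69), Sardh (0.66) and Mat1a (0.53), enzymes of folate, sarcosine and the methyl donor. Gnmt (0.27), Bhmt (0.36) and Cdo1 (0.32) did not pass, though Bhmt did without the high-Xist dwarf arrays (adjusted p = 0.0415). With median centring the count was 6 higher and 1 lower.

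**Figure D4:**
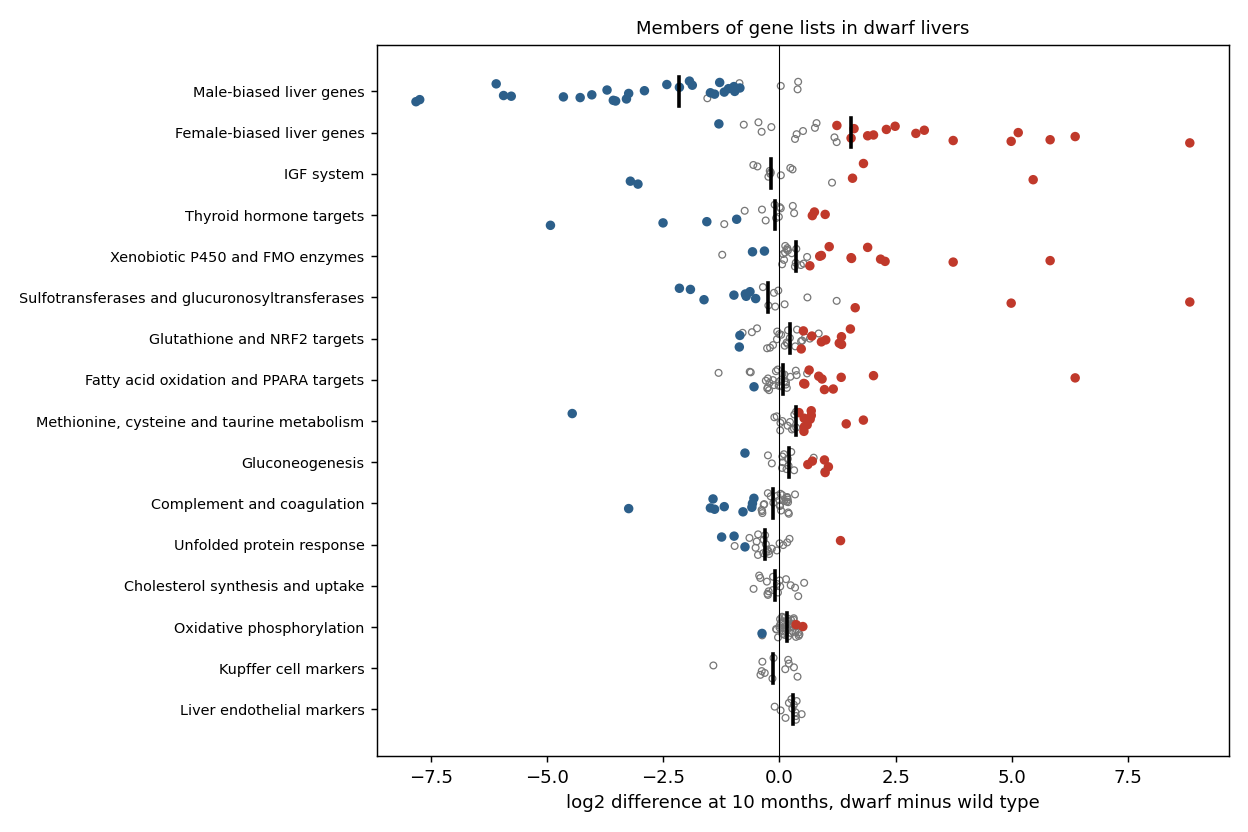
Log2 difference at 10 months for each tested member of 16 gene lists. Filled points passed the threshold (red higher, blue lower in dwarf), open points did not, and black bars mark the list medians, such as -2.15 for male-biased and 1.54 for female-biased genes.

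A part of the complement and coagulation list was lower. Of 33 complement and coagulation genes 9 were lower and 0 higher (8 and 1 without the high-Xist dwarf arrays), with a median of -0.13. C8a, a subunit of the membrane attack complex, read 987, 2552, 1927, 1801 and 1057 on the 5 dwarf arrays and 13857, 19948, 11464, 14629 and 15737 on the 5 wild-type arrays, a difference of -3.24 ± 0.39 (SE, adjusted p = 6.77e-07). Some other subunits of that complex, C8b (-1.48), C6 (-1.39), C9 (-1.18) and C8g (-0.59), fell, with all dwarf arrays below all wild-type arrays for each. For C9 the adjusted p was 0.0882 without the high-Xist dwarf arrays. The proteases F11 (-1.43), F12 (-0.55), Masp1 (-0.58) and C1ra (-0.78) fell too. C8a, C8b, C6 and C9 are also on the male-biased list. The acute phase list had 3 of 25 higher and 3 lower (2 and 1 without the high-Xist dwarf arrays). Saa1, an acute phase protein, read 2568, 5445, 5679, 2690.3 and 10521 on the 5 dwarf arrays and 1981, 43649.9, 3144, 1739 and 2218 on the 5 wild-type arrays, so a single wild-type liver, replicate 2, stood far above the rest. Saa4, its constitutive relative, fell by 1.15 on the log2 scale (adjusted p = 0.00692).

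In protein quality control, some genes of the endoplasmic reticulum fell. Of 24 unfolded protein response genes 1 was higher and 3 lower (1 and 1 without the high-Xist dwarf arrays), with a median of -0.30. With only the 10 arrays fitted 8 passed. A negative difference was found for 19 of these 24 genes, and 12 had an unadjusted p under 0.05, against 2820 of all 15421 genes. Creld2 (-1.24), Manf (-0.97) and Dnajb11 (-0.74), all products of the endoplasmic reticulum, fell. The call of Creld2 was lost without any 1 of dwarf replicates 1, 3 or 4 and wild type replicates 1, 2 or 3 (adjusted p of 0.0523 to 0.113), and that of Manf without any 1 of dwarf replicates 1 or 3 and wild type replicates 2 or 3 (adjusted p of 0.0586 to 0.0945). The adjusted p without those 2 high-Xist dwarf arrays was 0.15 for Creld2 and 0.0844 for Manf. Hspa5, the main chaperone of that compartment, read 10799 to 15713 in dwarf and 17086 to 20884 in wild type without overlap, and its difference of -0.46 had an adjusted p of 0.137, against 0.0379 with only the 10 arrays fitted. Psmb9, a proteasome subunit, read 256, 311, 148, 223 and 216 on the 5 dwarf arrays and 492, 682, 665, 809 and 486 on the 5 wild-type arrays. It was the 1 gene of 27 on the proteasome list that passed, at -1.39 ± 0.23 (SE, adjusted p = 0.000101). A negative difference was found for 23 of these 27 genes, with a median of -0.09, and 3 had an unadjusted p under 0.05. In autophagy and lysosome 3 of 22 were higher and 1 lower (3 and 0 without the high-Xist dwarf arrays), and in cytosolic heat shock 1 of 18 was higher and 1 lower. Of 43 genes of oxidative phosphorylation 2 were higher and 1 lower (3 and 0 without those arrays), against 3.33% higher and 2.86% lower over all genes. Of these 43 genes 38 had a positive difference, with a median of 0.17 against 0.03 over all genes. An unadjusted p under 0.05 was found for 16 of them, against 2820 of all 15421 genes. Of 18 ribosomal protein genes 0 were higher and 1 lower (0 and 0 without those arrays). Of 26 proliferation genes 1 was higher and 0 lower (0 and 1 without those arrays). A positive difference was found for 19 of these 26 genes, with a median of 0.33, and 10 had an unadjusted p under 0.05. The clock list had 1 of 18 higher, Per1 (2.08, adjusted p = 0.00848, and 0.0855 without the high-Xist dwarf arrays), and Dbp, a clock output gene, read 815 to 7306 in dwarf and 887 to 7655 in wild type.

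In iron and heme metabolism, Alas2, the first enzyme of heme synthesis in red cell precursors, read 1006, 2515, 2149, 1319 and 1708 on the 5 dwarf arrays and 7546, 5216, 6252, 5747 and 5894 on the 5 wild-type arrays. Its groups did not overlap, with a difference of -1.87 ± 0.34 (SE, adjusted p = 0.00034). Alas2 is also on the male-biased list. The transferrin receptor Tfrc rose by 0.92 ± 0.19 (SE, adjusted p = 0.00224), and Hamp2 made the count 2 of 20 higher and 1 lower.

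Whole liver holds many cell types, and in bulk RNA fewer cells of a type cannot be told apart from less RNA per cell. Hepatocyte markers had 2 of 9 higher (Tat and Cps1) and 0 lower. Kupffer cell markers had 0 of 12 past limma's threshold and 2 at an unadjusted p under 0.05, with a summed signal of 11829 to 14113 in dwarf and 8879.8 to 20289 in wild type. The endothelial list had 0 of 12, and 3 unadjusted, with 9858 to 16206 in dwarf and 8464 to 12031 in wild type. Of 16 stellate cell and matrix genes 3 were higher, Dcn (0.65), Col4a1 (0.59) and Sparc (0.57), and 1 without the high-Xist dwarf arrays, with sums of 19920.5 to 24667 in dwarf and 14671 to 20848 in wild type. The call of Col4a1 was lost without any 1 of dwarf replicates 1, 2, 3, 4 or 5 and wild type replicates 2, 4 or 5 (adjusted p of 0.0566 to 0.179), and that of Sparc without any 1 of dwarf replicates 1, 2 or 4 and wild type replicate 2 (adjusted p of 0.0511 to 0.0755). The adjusted p without the high-Xist dwarf arrays was 0.163 for Col4a1 and 0.205 for Sparc. Markers of bile duct (0 of 4), T and NK cells (0 of 9), neutrophils (0 of 6), MHC class II (0 of 6), fat (0 of 4), and kidney and adrenal (0 of 6) did not pass in either direction, nor did the 4 X and Y genes. At an unadjusted p under 0.05 these lists had 0, 1, 2, 1, 1, 1 and 1 genes. Over all genes this held for 2820 of 15421, a share that also stands behind the Kupffer and endothelial counts.

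Single markers of other cells did fall. Ighm, the heavy chain of IgM, read 294, 368, 253, 144 and 661 on the 5 dwarf arrays and 2258, 987, 3003, 788 and 1142 on the 5 wild-type arrays, the 1 of 8 B and plasma cell markers that passed, at -2.17 ± 0.38 (SE, adjusted p = 0.000232), with a summed list signal of 2463 to 3278 in dwarf and 2920.2 to 5902 in wild type. Of the 10 other Ighm probe sets 1 gave -1.70 and 9 lay between -0.55 and 0.60, and with all averaged the difference was -0.42 (adjusted p = 0.189). Of 3 red cell markers only Alas2, which is also on the male-biased list, passed, and it fell. The sums of the list, mostly Alas2, were 1286 to 2878 in dwarf and 5423 to 8399.6 in wild type. The hemoglobin gene Hba-a1 was dim on both sides, with 32.8 to 189 in dwarf and 91.8 to 251 in wild type. Of 4 pancreas markers Cela1, an elastase, fell by 1.30 on the log2 scale, with 690.0 to 1060.3 in dwarf and 1296 to 3422 in wild type and list sums of 1147 to 1594 in dwarf and 2012 to 3960.3 in wild type. Cela2a, an elastase of the pancreas, was dim throughout, with 10.2 to 83.2 in dwarf and 20.6 to 161 in wild type. The part of such cells in the other differences was not tested.

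Dwarf livers differed among themselves. Over the 333 genes that passed with at least a 2-fold difference, the distance of a dwarf array from the wild-type mean was expressed as a percentage of the distance between the group means. Its median was 106% on dwarf replicate 1, 112% on replicate 2, 97.7% on replicate 3, 100.3% on replicate 4 and 86.8% on replicate 5. On replicate 5 the value was below the midpoint for 46 genes, against 8 to 22 on the other 4. For the wild-type arrays the median ran from -6.72% to 5.61%, with 17 to 24 genes past the midpoint. These percentages describe genes chosen by the same arrays.

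The widest spread over dwarf arrays among genes that passed was that of Cyp4a12a, a fatty acid hydroxylase of male liver. It read 251, 4181, 796, 1047 and 12981 on the 5 dwarf arrays and 17999, 15768, 16027, 16180.1 and 15093 on the 5 wild-type arrays. Dwarf replicate 5 lay just below the wild-type range and replicate 1 far below it, and the difference was -3.29 ± 0.86 (SE, adjusted p = 0.0154). Its call was lost without dwarf replicate 1 (adjusted p = 0.0707), and the adjusted p was 0.225 without both high-Xist dwarf arrays. Wfdc21, a small secreted protein, read 230.4, 37, 380.2, 318 and 2042 on the 5 dwarf arrays and 19796, 25538, 21797, 23252 and 20149 on the 5 wild-type arrays, a difference of -6.09 ± 0.67 (SE, adjusted p = 8.85e-08), and dwarf replicate 5 again was nearest to wild type. Fam25c read 657, 66.9, 1054, 796 and 792 on the 5 dwarf arrays and 3205, 2183, 2308, 2627 and 2909.7 on the 5 wild-type arrays, with dwarf replicate 2 far below the other 4, a difference of -2.33 ± 0.40 (SE, adjusted p = 0.00016).

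Acacb, the acetyl-CoA carboxylase that governs fat oxidation, read 95.8, 33.8, 622, 471 and 844 on the 5 dwarf arrays and 988, 1890.4, 1754, 802 and 935 on the 5 wild-type arrays. Dwarf replicate 5 overlapped with wild type, and the difference was -2.16 ± 0.64 (SE, adjusted p = 0.0375). Another probe set of Acacb gave -0.44. The transcript 4632428C04Rik read 303, 20, 200.3, 258 and 118 on the 5 dwarf arrays and 36, 24.8, 24.5, 19 and 65.7 on the 5 wild-type arrays, with dwarf replicate 2 at the wild-type level and a difference of 1.71 ± 0.52 (SE, adjusted p = 0.045). Without the 2 high-Xist dwarf arrays the adjusted p was 0.144 for Acacb and 0.393 for 4632428C04Rik. With 1 array left out at a time, the call of Acacb was lost without any 1 of dwarf replicates 1 or 2 and wild type replicates 1, 2, 3 or 5 (adjusted p of 0.0505 to 0.166) and that of 4632428C04Rik without any 1 of dwarf replicates 1, 3, 4 or 5 and wild type replicates 1, 2, 3 or 4 (adjusted p of 0.0595 to 0.139). For Me1, given above, dwarf replicate 5 read 9276, and the other 4 lay between 823 and 2356.

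**Figure D5:**
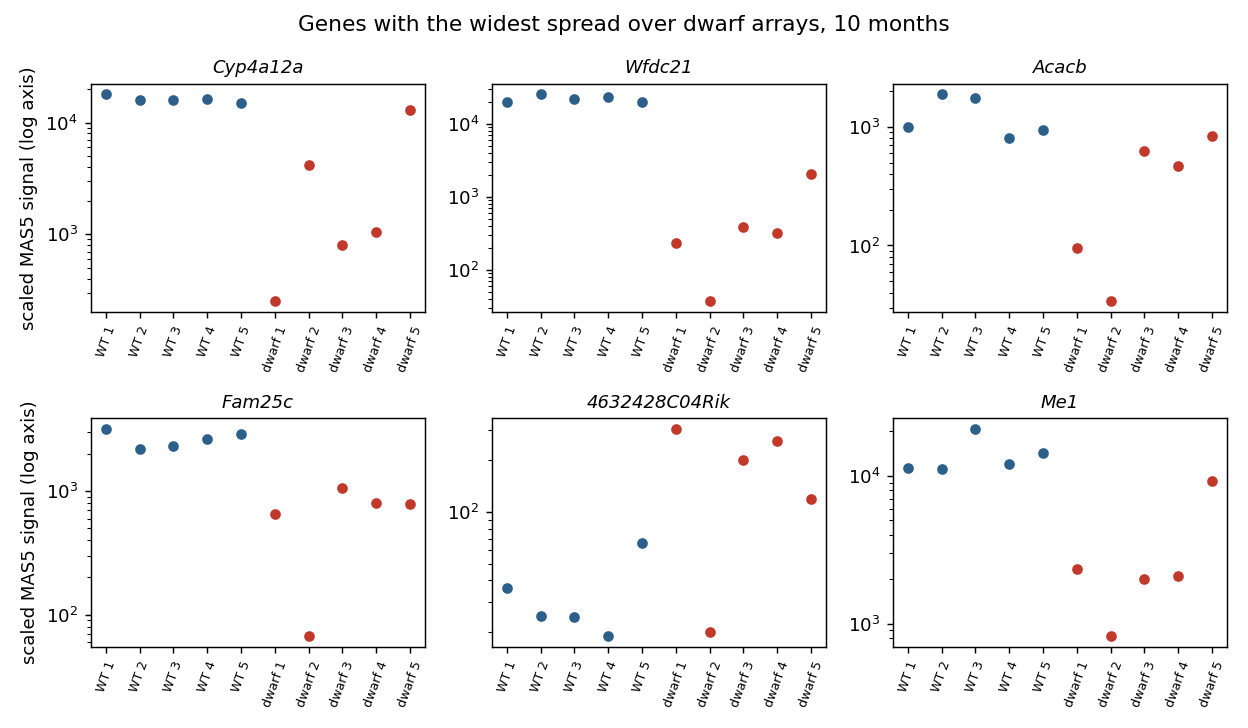
Scaled signal on a log axis, by array, for the 6 genes that passed at 10 months and had the widest spread over the 5 dwarf arrays. Dwarf replicate 5 lay nearest to wild type for Cyp4a12a (12981), Wfdc21 (2042), Acacb (844) and Me1 (9276), and dwarf replicate 2 lay lowest for Wfdc21, Acacb, Fam25c, 4632428C04Rik and Me1.

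Some calls rested on the choice of probe set or on the scaling. When the probe sets of a gene were averaged, 16 of the 133 genes named here that had passed did not: Pik3r1, Trib3, Slc16a10, Gpd2, Lifr, Nfe2l2, Fabp1, Gpt, Mthfd1, Masp1, Saa4, Tfrc, Ighm, Col4a1, Sparc and Acacb. With median centring 10 did not: Acadl, Acadm, Acot3, Mat1a, Nfe2l2, Nr1i3, Cps1, Slc25a15, Col4a1 and 4632428C04Rik. Calls were also gained: of the 68 named genes that had not passed, 11 passed under at least 1 alternative. These were Ghr, Thrsp, Igf2 and Acly with probe sets averaged, Cish and Hspa5 with only the 10 arrays fitted, and Cyp2d9, Bhmt, Insr, Abcb11 and Srebf1 under settings that include a left-out array or another variance model. None of the 133 changed sign past the threshold under any of the 25 alternatives.

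Whether the genotype difference of 10 months differed from that of 4 months was tested as the difference of the 2 differences, which share no array. With limma 0 genes (0%) passed, 1001 had an unadjusted p under 0.05, and the smallest adjusted p was 0.281. Of the 24 largest changes at 10 months, 24 had passed with the same sign at 4 months, and 13 were smaller in size there. The 6 genes with the smallest p were Tmem126b, Ptprn, Fbxl19, Ccdc92b, Sst and Mrpl10. Sst, somatostatin, read 52, 52.3, 37.9, 134 and 49 on the 5 dwarf arrays and 245, 192, 357, 316 and 278 on the 5 wild-type arrays at 10 months. Its difference was -1.93 at 10 months and 0.26 at 4 months (adjusted p of the change 0.448). Mrpl10, a mitochondrial ribosomal protein, differed by 0.68 and -0.14, and Fbxl19, a ubiquitin ligase subunit, by -0.99 and 0.58. Tmem126b, an assembly factor of respiratory complex I, differed by -0.30 and 1.56, Ptprn, a protein of secretory granules, by 0.41 and -2.04, and Ccdc92b by 0.28 and -1.19.

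Against 22 months, 5 genes (0.0324%) passed and 1302 had an unadjusted p under 0.05. The difference of Igfals was -3.20 at 10 months and -1.26 at 22 months, a change of -1.94 ± 0.33 (SE, adjusted p = 0.0117). Its mean signal in dwarf was 300.3 at 10 months and 1302 at 22 months, and in wild type 2883 and 2779. Mup10 differed by -7.73 and -4.55 (adjusted p = 0.0117), and Csad by -4.45 and -2.09 (adjusted p = 0.0117). For these 3 genes the deficit at 10 months was the deeper one. The mean of Mup10 at 10 and 22 months was 38 and 485 in dwarf, and 10750 and 10945 in wild type. That of Csad was 299 and 414 in dwarf, and 7699 and 1889 in wild type, so for Csad it was the wild-type mean that differed most between these ages. Tbcel, a tubulin cofactor relative, differed by -0.89 and 0.21, and Adarb1, an RNA-editing deaminase, by 1.34 and -0.98 (adjusted p = 0.0354 and 0.0354). The other probe set of Adarb1 gave 0.33 at 10 months. Spc24, a kinetochore subunit and next in order, differed by -0.14 and 1.20 (adjusted p = 0.0598).

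These calls moved with single arrays. Leaving out 1 array of 10 months at a time gave 3 to 11 genes, with 3 without dwarf replicate 1 or dwarf replicate 2 and 11 without dwarf replicate 5. Without the 2 high-Xist dwarf arrays of 10 months, 0 genes passed limma's test and 1157 had an unadjusted p under 0.05, with changes of -1.99 for Igfals and -3.19 for Mup10 at an adjusted p of 0.079 each. Without those and the 2 high-Xist arrays of 22 months, 16 passed, among them Igfals (-2.24, adjusted p = 0.00539), Mup10 and Adarb1 (adjusted p = 0.0492 each). Of the 24 largest changes at 10 months, 21 passed with the same sign at 22 months and 23 were smaller in size there. At 4 months 13 of them were smaller. Choosing genes by their size at 10 months favours a smaller size elsewhere. The exceptions to passing at 22 months were Mt1 (2.01), Wfdc21 (-2.08) and Csrp3 (-1.11). Of the high-Xist arrays of 22 months, wild type replicate 2 read 5.6 for Eif2s3y and dwarf replicate 1 read 21.6. With all high-Xist arrays left out, the change moved from 1.60 to 0.12 for Sult2a2, 1.05 to 0.07 for Cyp2b13 and -1.02 to 0.29 for Hsd3b5. It grew from 1.37 to 1.64 for Spink1 and from -4.01 to -4.72 for Wfdc21. The part of these arrays in the pattern was not tested.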

How the data were processed

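Liver RNA of 31 mice was measured, 10 of them at 10 months. The deposited intensity values are MAS5 signals, per the submitters' processing notes. The sources used here do not state the MAS5 version or target scaling. Each array was rescaled to a trimmed mean of 500 (2% trimmed at each end), and log2(signal + 16) was taken, which understates changes of dim genes. Probe sets were named by the platform annotation: 34945 had 1 symbol, 932 several and 9160 none. Those above the 40th percentile of their array on at least 5 arrays were kept, with the brightest per gene, giving 15421 genes. limma 3.58.1 in R 4.3.3 fitted 6 group means over all 31 arrays with a variance trend, and its Benjamini-Hochberg adjusted p was called at 0.05. Groups came from the sample titles, and the mutated gene is not reported here.

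The group compared and the gene lists were chosen with earlier results of these data known. Genes named are the 12 largest rises and 12 largest falls that passed with groups apart, the 6 with the widest dwarf spread, the 6 of smallest p per age comparison, and list members. Of 895 list members 778 were tested, in 46 lists, and a gene can be on several of them. The fit was tested on simulated data. Promoter windows came from RefSeq (GRCm38.p6): 12339 tested genes had 1 or more. Alternatives changed the scaling, pseudocount, filter, probe set rule, variance model and arrays used, and all were planned. The number of arrays limits the precision. Probe sets without a single symbol were left out.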

Additional observations from a re-analysis of the deposited data

Results flagged for a closer look

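Of 58 groups of 5 examined among the named genes, 3 held a liver whose gap to the nearest other, over the range of the group, exceeded the critical ratio of 0.71. Chance flags about 1 in 20 such groups. Serpina4-ps1 read 234.4 on dwarf replicate 4, the highest of the 5 dwarf arrays and 1 of the 2 with high Xist. Csrp3 read 45.9 on dwarf replicate 5, the highest of its group, and Fam25c read 66.9 on dwarf replicate 2, the lowest of its group.

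For 5 genes the genotype difference of 10 months differed from that of 22 months by limma's test of that change. The change, 10 months minus 22 months, was -1.94 for Igfals, -3.18 for Mup10, -2.36 for Csad, -1.10 for Tbcel and 2.32 for Adarb1. Without the high-Xist dwarf arrays the changes were -1.99, -3.19, -2.20, -1.03 and 2.37, and none of the 5 passed. Without all 4 high-Xist arrays Igfals, Mup10 and Adarb1 passed. Without the variance trend 0 genes passed.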

How the results depend on the processing

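The 955 genes called at 10 months became 603 without the 2 high-Xist dwarf arrays, with 324 in place of 514 higher and 279 in place of 441 lower. Median centring gave 333 higher genes, and the other alternatives kept each of these counts within 1.5 times. Leaving out 1 array at a time gave 690 to 927 called genes, 347 to 482 higher and 343 to 449 lower.

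The comparison of 10 with 4 months, with 0 genes, gave 1 when each probe set was tested on its own. That of 10 with 22 months, with 5 genes, gave 16 without all 4 high-Xist arrays, 17 with array weights, 0 without the high-Xist dwarf arrays, 3 with each probe set on its own, 0 without the variance trend, 3 with quantile normalization, and 3 to 11 with 1 array left out.

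Of 133 named genes that passed, 98 passed under all 25 alternatives and 0 reversed. The high-Xist dwarf arrays cost 16 calls when left out, and averaging probe sets cost 16. Of 92 list counts, 50 stayed within 1.5 times throughout, among them the male-biased, female-biased, complement, xenobiotic, glutathione and sulfotransferase lists in their main direction. The cause of these moves was not tested. Signals near background have no reliable order, so differences of genes that were dim on both sides are uncertain. No paired analysis was possible because each array holds another animal and the labels give no numbers shared between the groups.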
